A study of Rattus norvegicus with 35 samples.

Results

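The genes described here encode the main families of RNA splicing factors. They were measured in 34 single rat converted hypoblast stem cells and in 1 library labelled as the bulk population control. Members were chosen by name alone: a record of the count table belonged if its RefSeq identifier was matched to a rat symbol starting with Srsf, Hnrnp, Snrp, Sf3a or Sf3b, or to Sfpq, U2af1 or U2af2. This gave 49 genes of 17201 records, with 10 SR genes, 17 hnRNP genes, 7 genes of the Sm core, 4 genes of U1 and U2 snRNP proteins, 9 SF3a and SF3b genes, U2af1 and Sfpq. No record was matched to U2af2. All libraries were of 1 kind of culture. Rat embryonic stem cells were converted with LIF, PDGF, EGF and 2% serum, the cells were passaged from 7 days after plating, and they were collected on day 12 of differentiation. The single cells were captured on the C1 microfluidic system and their RNA was amplified and made into Nextera XT libraries. The bulk library serves as the population control. The labels name no culture number or batch, so the cells are 1 sample and the bulk library is another. No difference could be tested, SDs describe the spread between cells, and every fold between cells and bulk compares these libraries only.

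Introns are removed from pre-mRNA by the spliceosome, which is built from small nuclear ribonucleoproteins (snRNPs) on each intron. Sm proteins form the ring around the RNA of most spliceosomal snRNPs, U1 recognises the 5′ splice site, U2AF binds the 3′ splice site, and U2 with SF3a and SF3b binds the branch site. SR proteins and hnRNPs bind exons and introns and tune which sites are used, often in opposite directions. All dividing cells need this machinery. The count table holds reads per record and no junctions, so it gives the levels of these genes and says nothing of how any transcript was spliced.

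A cell's reads in genes numbered between 6288 and 503044, with a median of 266046, and the bulk library had 47121. Levels are given as CPM, a gene's reads scaled to a common library total, so 1 read was worth 21.2 CPM in bulk and from 1.99 to 159 CPM in a cell. Where bulk had no read, a floor of 3 reads, or 63.7 CPM, was also used for comparison. Intervals are exact 95% Poisson intervals of the bulk reads with the cells' mean held fixed, or exact Clopper-Pearson 95% intervals for shares. For a bulk count of 0 the Poisson interval reaches 3.69 reads, or 78.3 CPM. A fold over the floor is therefore not a lower bound by that interval. Of the nonzero counts, 59.8% to 72.6% were even in the cells and 79.9% in bulk, so the intervals, which cover counting error only, may be too narrow. Cells C94 and C88 had the fewest reads, 6288 and 12750. A set of 22 cells had at least 50000 reads and at least 3000 records with a read and is called gene-rich. The other 12 cells had 349 to 2777 such records. Lengths of transcripts were not used here, so levels are compared for 1 gene between libraries and not between genes. The labelled cell type was checked on 8 hypoblast genes (among them Gata6, Gata4 and Sox17), each detected in 19 to 32 cells. Pou5f1, Nanog and Sox2 were detected in 3 to 7 cells, Col1a1, Col1a2 and Col3a1 in 1 to 4, and Ttr and Afp in none. Bulk had 39 reads of Col1a1, 40 of Col1a2 and 0 of Col3a1. In the cells the means of Col1a1 and Col1a2 were 58.8 and 135 CPM. At 21.2 CPM per bulk read, both genes were higher in bulk than in the cells' mean.

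Sequences upstream of the members' starts were read from the RefSeq promoter table (build GRCr8, which is not the build of the reads) and were found for 48 of 49 members. The 250 bases before the annotated start are shown for 4 genes that the results return to: Srsf3 and Hnrnpa3, which were detected in 32 and 34 cells, Snrpe, which was detected in 25 cells and had no bulk read, and Snrpn, which had no read in any library. They lie at chr20:7093335-7093584 on the plus strand for Srsf3, chr3:80985684-80985933 on the plus strand for Hnrnpa3, chr13:47609252-47609501 on the minus strand for Snrpe and chr1:120338920-120339169 on the minus strand for Snrpn, and run 5′ to 3′ on the gene's strand. Capitals mark matches, on either strand, to the CCAAT box, the TATAAA box or the ETS family core CCGGAAG, and no shown window matched the NRF1 motif that was also searched.
Srsf3: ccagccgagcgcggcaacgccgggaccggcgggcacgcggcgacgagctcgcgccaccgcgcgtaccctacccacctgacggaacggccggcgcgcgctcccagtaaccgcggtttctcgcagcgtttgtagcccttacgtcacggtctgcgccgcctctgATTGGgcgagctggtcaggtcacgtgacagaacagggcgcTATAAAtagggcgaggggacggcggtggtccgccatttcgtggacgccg
Hnrnpa3: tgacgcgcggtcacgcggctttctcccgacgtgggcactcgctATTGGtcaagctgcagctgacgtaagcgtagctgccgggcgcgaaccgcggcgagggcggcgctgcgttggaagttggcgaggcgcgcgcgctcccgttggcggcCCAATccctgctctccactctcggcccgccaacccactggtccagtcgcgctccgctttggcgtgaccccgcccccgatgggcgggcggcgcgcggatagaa
Snrpe: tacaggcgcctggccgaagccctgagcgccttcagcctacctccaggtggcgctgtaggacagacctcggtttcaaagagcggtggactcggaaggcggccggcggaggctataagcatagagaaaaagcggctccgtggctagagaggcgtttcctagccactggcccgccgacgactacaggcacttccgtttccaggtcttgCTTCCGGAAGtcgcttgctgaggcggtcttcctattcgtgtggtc
Snrpn: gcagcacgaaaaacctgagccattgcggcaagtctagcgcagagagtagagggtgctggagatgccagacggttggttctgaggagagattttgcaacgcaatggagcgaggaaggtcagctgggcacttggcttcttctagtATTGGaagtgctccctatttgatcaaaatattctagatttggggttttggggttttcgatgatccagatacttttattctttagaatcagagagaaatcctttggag

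These windows hold 40 CpG dinucleotides for Srsf3, 39 for Hnrnpa3, 21 for Snrpe and 7 for Snrpn. The median over the 48 members was 20.5, against 12 over the 12873 records with such a window, 18 over the 2362 records detected in at least 17 cells and 4 over the 4873 detected in none. The CCAAT box, which the factor NF-Y binds, was found in 24 of the 48 member windows (50%) and in 35.4% of all windows. The ETS family core was found in 13 member windows (27.1%) and in 11.2% of all, but also in 20.7% of the windows of records detected in at least 17 cells. In Snrpe its matches on both strands overlap in a single palindrome. The TATAAA box was found in 6 member windows (12.5%), in 11.5% of all and in 6.73% of those of records detected in at least 17 cells. The NRF1 motif, a palindrome searched without mismatches, was in 2 member windows (4.17%), with 1.17% and 2.79% for those 2 backgrounds. A match describes letters only. The table gives 1 start per gene, and the Hnrnpk window held a single CpG although the gene was detected in 32 cells.

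Nearly all splicing factor genes were found in most cells. Detection in a cell means a level of at least 5 CPM. By that rule 44 of 49 members were detected in at least 17 of the 34 cells, against 17% of all records. Members were more abundant than most records, and the background rises with level: among records with a mean of cells and bulk of at least 20 CPM, 41 of 43 members and 50.2% of all records were detected in at least 17 cells. At 100 CPM or more these were 29 of 29 members and 84.0% of records. Of the hnRNP genes all 17 passed 17 cells, as did 6 of 7 Sm core genes, all 4 U1 and U2 snRNP genes, 8 of 9 SF3a and SF3b genes, U2af1, Sfpq and 7 of 10 SR genes. Hnrnpa3, an hnRNP of the A/B group, was detected in all 34 cells, Hnrnpu, a scaffold protein of nuclear RNA and chromatin, in 33, and Srsf3, Hnrnpk and Hnrnpab in 32 each. The members that did not reach 17 cells were Srsf9 (15 cells), Srsf4 (14), Sf3a2 (6), Srsf12 and Snrpn.

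**Figure D1:**
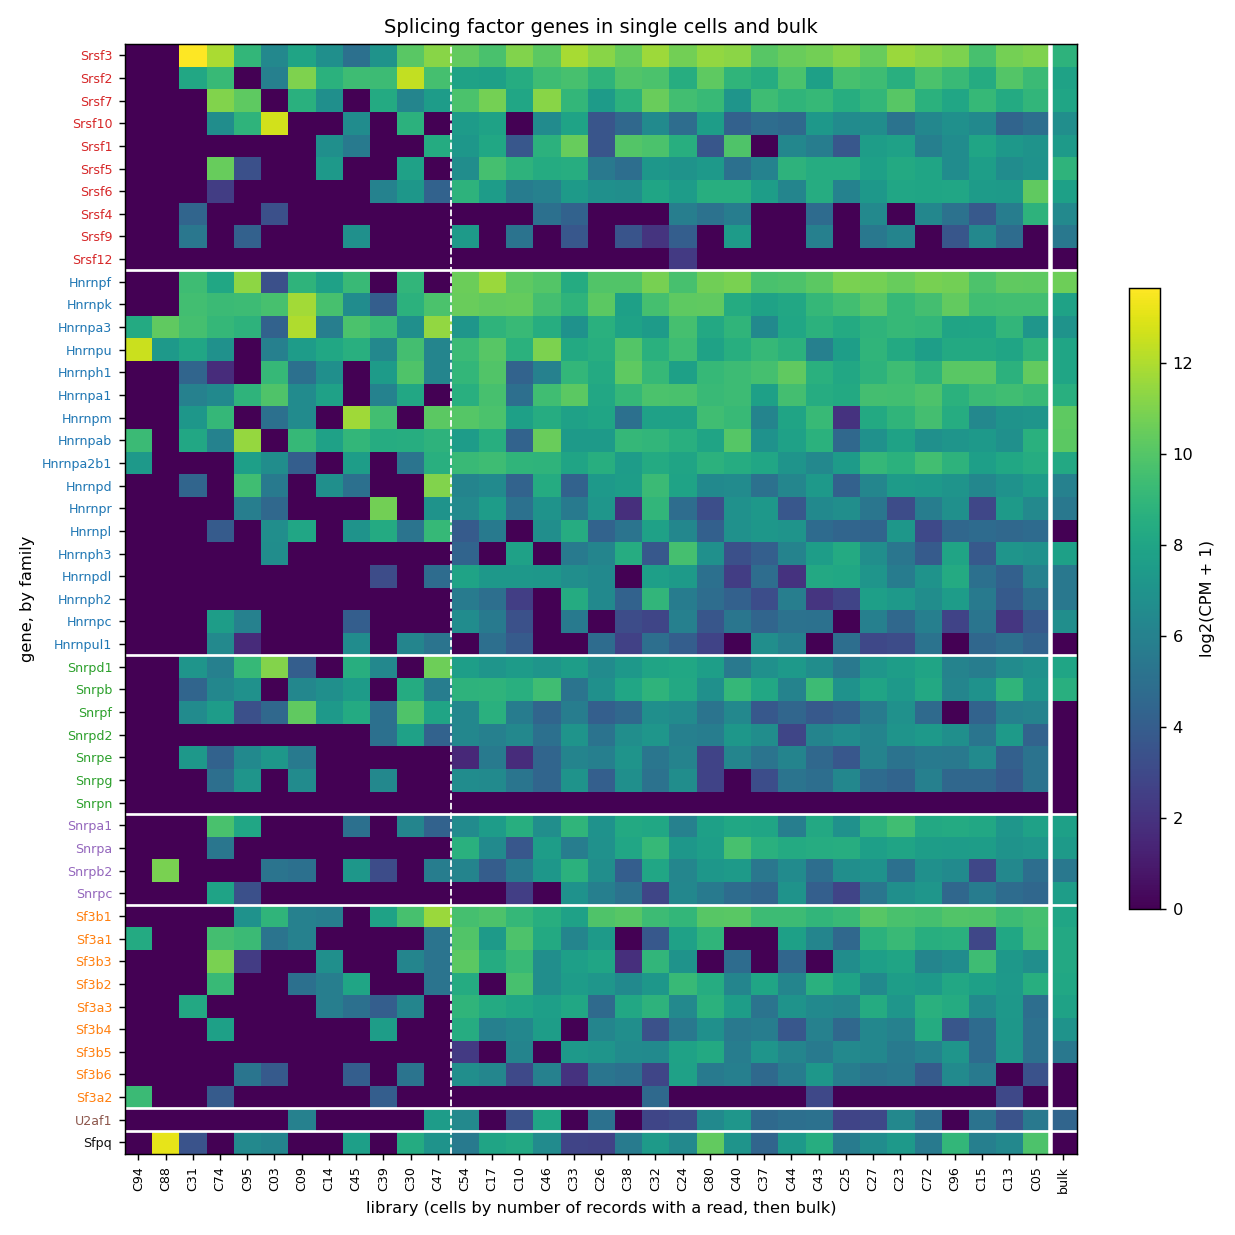
Level of each of the 49 splicing factor genes (rows, grouped by family and ordered by mean CPM) in 34 cells and the bulk library (columns), as log2(CPM + 1). Cells run from the fewest to the most records with a read, and the dashed line separates the 12 other cells from the 22 gene-rich cells, in which most rows are filled; Snrpn is empty throughout.

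The number of members found in a cell followed how many records the cell held. Gene-rich cells had 39 to 46 of the 49 members (median 43), and the other 12 cells had 4 to 29 (median 23.5), with 6 in C94 and 4 in C88. Those values do not overlap, but the cells were split by records with a read, members included, so a gap in that direction was built in. All records with a read ran from 3307 to 5514 in gene-rich cells and from 349 to 2777 in the others. Spearman's rho between members detected and records with a read was 0.899 over 34 cells and 0.688 over the 22 gene-rich cells, as a description, since both counts come from the same library. The summed level did not climb with it. All members together made up 13153 ± 3492 CPM (mean ± SD, n = 34 cells), with a lowest value of 3531 CPM in C14, a median of 13784 and a highest value of 18997 in C32. In bulk the sum was 10908 CPM from 514 reads (interval 9985 to 11893), and 26 cells lay above it. The coefficient of variation of the sum was 26.5% over all cells, 19.7% over gene-rich cells and 37.2% over the other cells. Spearman's rank correlation between the sum and the records with a read was 0.06 over 34 cells and −0.33 over the gene-rich cells.

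**Figure D2:**
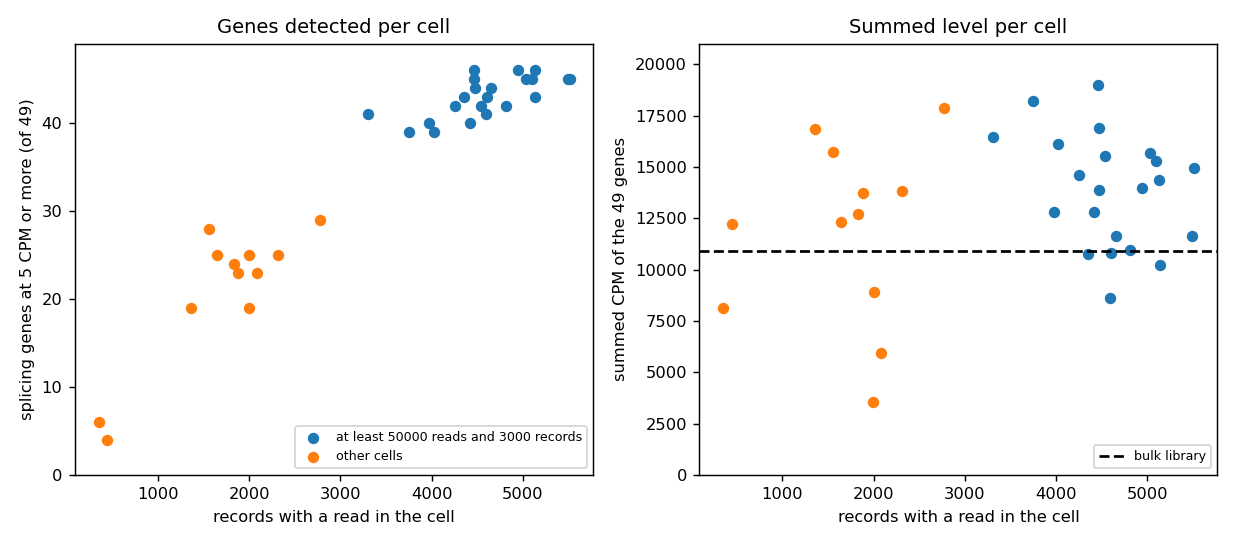
Left, splicing factor genes at 5 CPM or more in each cell against the number of records with a read in that cell; right, summed CPM of the 49 genes against the same axis, with the bulk library as a dashed line. Detection climbs from 4 genes in C88 to 46, while the sums of cells with few and many records overlap.

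SR proteins carry RNA recognition motifs and a domain rich in arginine and serine, and most promote the use of nearby splice sites. Their summed level was higher in the cells than in bulk, with Srsf3 making up much of the gap. The summed SR level was 4124 ± 2571 CPM in the cells and 2016 CPM in bulk (95 reads), a ratio of 2.05 (interval 1.67 to 2.53), or 1.41 (interval 1.13 to 1.8) without Srsf3. Genes were compared on log2(CPM + 1) where cells and bulk averaged at least 1 CPM. Of the 9 SR genes compared, 4 were at least 2-fold higher in the cells, against 53.4% of all records compared. These were Srsf3, Srsf2, Srsf7 and Srsf10, of which Srsf10 rests on C03. Srsf4 and Srsf5 were at least 2-fold higher in bulk, against 21.9% of records. The summed SR level was above bulk in 29 of 34 cells and in all 22 gene-rich cells, where it ranged from 2404 to 7252 CPM. Its ratio to bulk was 2.02 without the 4 cells with a Col1a2 read and 2.17 without C94 and C88. What the higher Col1a1 and Col1a2 levels of bulk contribute to any ratio here was not tested. C94 and C88 had no SR read at all. The hnRNP sum showed no such gap, at 5665 ± 2088 CPM in the cells and 6091 CPM in bulk (287 reads), a ratio of 0.930 (interval 0.829 to 1.05), with 15 cells above bulk. Most of those bulk reads were of Hnrnpf (76), Hnrnpm (58) and Hnrnpab (56), which were all lower in the cells. The hnRNP sum without these genes was not computed.

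**Figure D3:**
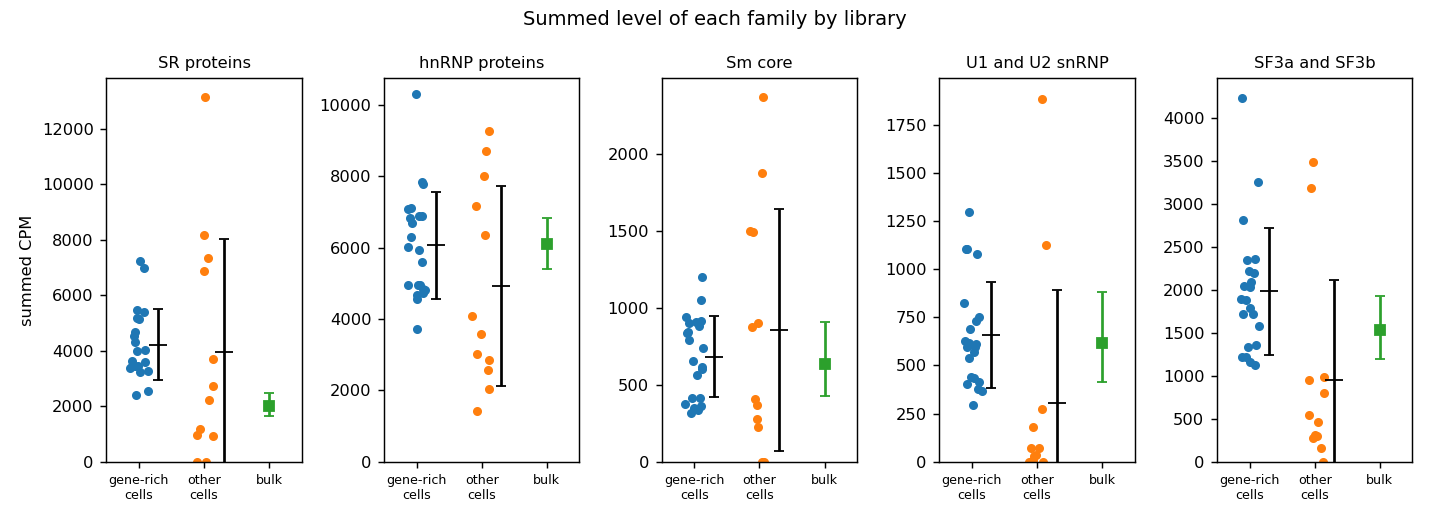
Summed CPM of 5 splicing factor families in each gene-rich cell, each other cell and the bulk library. Points are cells, black bars are mean ± SD over the cells (cut off at 0 CPM), and green squares are bulk with the 95% Poisson interval; in the SR panel every gene-rich cell is above the bulk square, and in the hnRNP panel they lie on both sides of it.

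The share of SR reads among SR and hnRNP reads does not depend on how totals are scaled. It was 24.9% in bulk (95 of 382 reads, interval 20.6% to 29.5%). In the cells it was 39.3% ± 18 (SD, n = 34), from 0% in C94 and C88 to 81.4% in C31. In the 22 gene-rich cells it was 40.9% ± 6.87, with a lowest value of 29.5%, a median of 40.5% and a highest value of 61.4%. Every gene-rich cell was above the bulk value and 21 were above the upper end of its interval. The gap was smaller without Srsf3, where the share was 20.5% in bulk and 26.7% ± 6.34 in gene-rich cells, of which 19 were above bulk and 14 above its interval (16.5% to 25%). The share also depends on the hnRNP genes, of whose 287 bulk reads Hnrnpf held 76, Hnrnpm 58 and Hnrnpab 56. It was not computed without these genes, so the gap cannot be read as one between the families at large.

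Srsf3, a small SR protein with functions in splicing and mRNA export, ranged from 0 CPM to 12795 CPM in C31, with a median of 1596 and a mean of 1905 ± 2212 CPM. In bulk it was 446 CPM (21 reads), and 27 of 34 cells were above that value. All 22 gene-rich cells were above it, at 1974 ± 778 CPM. The cells' mean was 4.27-fold the bulk (interval 2.80 to 6.91) and 3.53-fold without C31. The RefSeq table lists 10 pseudogene loci named for Srsf3, and how multiply mapped reads were counted is not given in the sources used here. Srsf2, which also binds exonic enhancers, had a lowest value of 0 CPM, a median of 592 and a highest value of 5314 CPM in C30, against 233 CPM in bulk, with 27 cells above bulk. Its mean of 715 ± 909 CPM was 3.06-fold the bulk (interval 1.71 to 6.14). Srsf7, a relative of Srsf3 with a zinc knuckle, ranged from 0 to 2339 CPM (median 431, mean 576 ± 596) and was above its bulk level of 255 CPM in 24 cells, a ratio of 2.26 (interval 1.29 to 4.37).

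Srsf5 was higher in bulk, and the mean of Srsf10 rested largely on 1 cell. Srsf4 was higher in bulk with and without C05, which held 46.4% of its signal, but its interval included 1. Srsf5, which also binds exonic enhancers, ranged from 0 to 1418 CPM in C74 (median 125, mean 203 ± 278), while bulk held 467 CPM (22 reads). Just 2 cells were above bulk, which exceeded their mean 2.31-fold (interval 1.44 to 3.49). Srsf4 was listed at 0 in most cells (median 0 CPM), reached 445 CPM in C05 and had 84.9 CPM in bulk from 4 reads. Bulk exceeded the cells' mean 3.01-fold (interval 0.820 to 7.70) and 5.44-fold without C05. Srsf10, which acts as a splicing repressor when dephosphorylated, had a mean of 285 ± 1141 CPM, but C03 held 6709 CPM and 69.1% of the signal, and the median was 57.2 CPM against 106 in bulk. The ratio of cells to bulk was 2.69 with C03 (interval 1.15 to 8.28) and 0.855 without it. Srsf1, the founding member of the family, was at 214 ± 344 CPM in 24 cells and 170 CPM in bulk, and Srsf6 at 171 ± 231 CPM in 25 cells and 212 CPM in bulk. Srsf9 was at 26.3 ± 46.7 CPM in 15 cells and 42.4 CPM in bulk. The interval of the ratio included 1 for each of these 3. Srsf12 had 1 read in all, in C24.

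hnRNP proteins coat nascent RNA, and many repress splice sites or carry mRNA to the cytoplasm. Within this family 7 of 17 genes were at least 2-fold higher in the cells, where 53.4% of all records compared were, and 4 at least 2-fold higher in bulk, where 21.9% of records were. With bulk at the floor of 3 reads where it had none, 5 of the 17 were at least 2-fold higher in the cells, against 7.86% of records. The floor acts on 2 of the 17 but on 47.5% of all records compared, so these shares are not at matched levels. Among all records of at least 20 CPM, without the floor, 26.5% were at least 2-fold higher in the cells. Hnrnpa3 ranged from 18.4 to 4128 CPM in C09, with a median of 417 and a mean of 584 ± 793 CPM. Bulk held 127 CPM (6 reads) and 29 cells were above it, a ratio of 4.59 (interval 2.11 to 12.5), or 3.74 without C09 and 2.83 in gene-rich cells. Hnrnpk, a poly(C)-binding protein, ranged from 0 to 3422 CPM in C09 (median 725, mean 783 ± 623) against 233 CPM in bulk, with 28 cells above bulk and a ratio of 3.35 (interval 1.87 to 6.72). Hnrnpu had a mean of 575 ± 1036 CPM and a median of 314, against 255 CPM in bulk. C94 held 6043 CPM from 38 reads, and the ratio of 2.26 (interval 1.29 to 4.37) was 1.61 without it.

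Hnrnpm, Hnrnpab, Hnrnph3 and Hnrnpc were higher in bulk. Hnrnpm, which binds GU-rich sites and takes part in epithelial and mesenchymal splicing choices, ranged from 0 to 3384 CPM in C45 with a median of 226 CPM, and bulk held 1231 CPM from 58 reads. A single cell was above bulk, and bulk exceeded the cells' mean of 414 ± 617 CPM 2.97-fold (interval 2.26 to 3.85). Hnrnpab, a relative of Hnrnpd, ranged from 0 to 2883 CPM in C95 with a median of 241 and a mean of 399 ± 533 CPM, and bulk held 1188 CPM from 56 reads. It was above bulk in 2 cells, and bulk exceeded the mean 2.98-fold (interval 2.25 to 3.87). These 2 genes rest on enough bulk reads for narrow intervals, unlike Hnrnph3 (10 bulk reads, 2.40-fold, interval 1.15 to 4.41) and Hnrnpc (5 bulk reads, 4.07-fold, interval 1.32 to 9.49). Hnrnpc, a core component of hnRNP particles, was at 26.1 ± 38.5 CPM in 21 cells, with 6 pseudogene loci in the RefSeq table.

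The remaining hnRNP genes were under 2-fold apart in cells and bulk or had 3 bulk reads or fewer. Hnrnpf, a binder of G-rich runs, was at 1049 ± 767 CPM in 30 cells, from 0 to 3121 CPM in C17 with a median of 978, and at 1613 CPM in bulk from 76 reads. Bulk exceeded that mean 1.54-fold (interval 1.21 to 1.92), under the 2-fold used for a call. Hnrnpa1, which often opposes SR proteins at splice sites, ranged from 0 to 1182 CPM (median 439, mean 457 ± 336) and was at 382 CPM in bulk, a ratio of 1.2 (interval 0.757 to 2.02). The table lists 51 pseudogene loci for Hnrnpa1. Hnrnpa2b1, an hnRNP that also sorts RNAs, was at 269 ± 205 CPM in cells and 297 CPM in bulk, a ratio of 0.907 (interval 0.540 to 1.66). Hnrnph1, a close relative of Hnrnpf, was at 470 ± 424 CPM and 255 CPM in bulk, a ratio of 1.84 (interval 1.06 to 3.57). Hnrnpd, which also acts on mRNA decay, was at 182 ± 375 CPM in 28 cells, Hnrnpr at 120 ± 302 CPM in 25 and Hnrnpdl at 79.5 ± 98.6 CPM in 21. These 3 had 2 or 3 bulk reads each, and their ratios of 2.85, 2.82 and 1.87 had intervals that included 1. Hnrnpd and Hnrnpr are among the genes counted above as at least 2-fold higher in the cells. Without C47 the ratio of Hnrnpd was 1.94, and without C39 that of Hnrnpr was 1.66. Hnrnpl, which binds CA-rich RNA, and Hnrnpul1 had no bulk read. Hnrnpl had 89.7 ± 126 CPM and was found in 28 cells, with a mean 1.41-fold the floor of 3 bulk reads. Its mean was 75.3 CPM without C47 and 73.2 CPM in gene-rich cells. Both are under 78.3 CPM, the upper end of the interval of a bulk count of 0. Hnrnpul1 was found in 20 cells at 21.9 ± 29.8 CPM, under the floor. Hnrnph2 was detected in 19 cells, the fewest of the hnRNP genes.

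**Figure D4:**
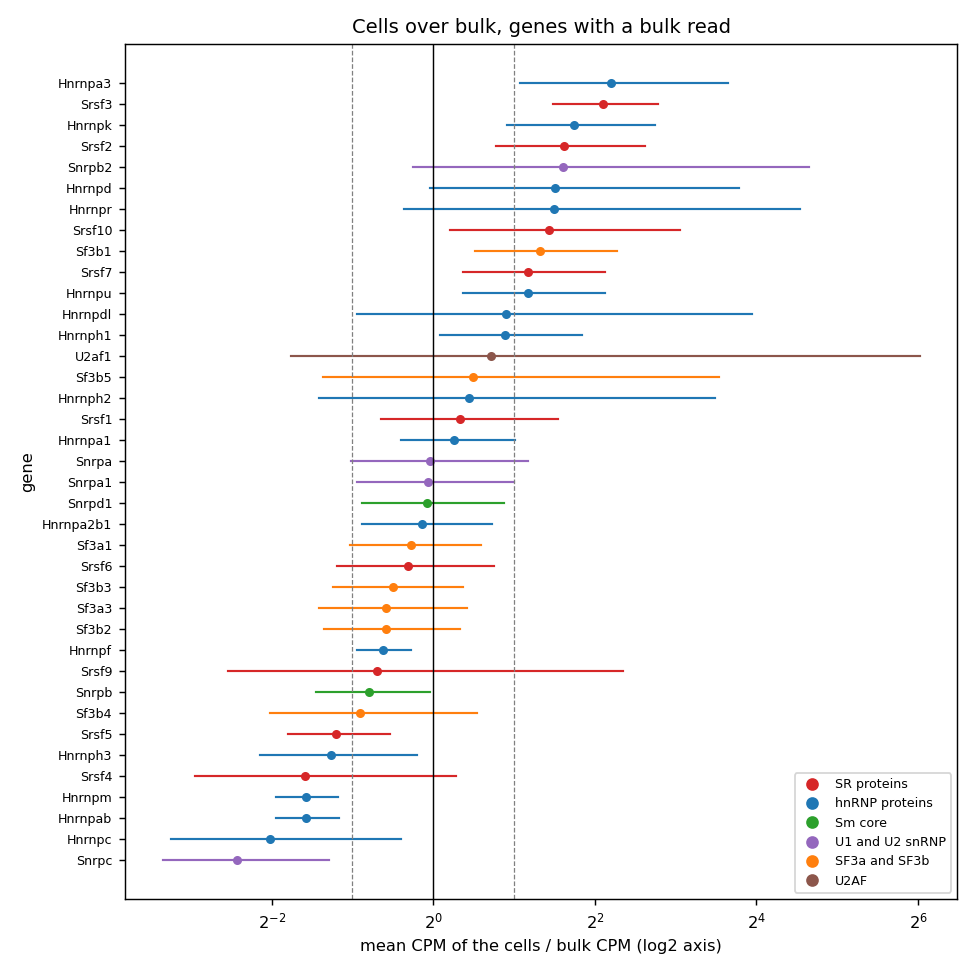
Ratio of the cells' mean CPM to bulk CPM (log2 axis) for the 38 splicing factor genes with a bulk read, with bars for the 95% Poisson interval of the bulk reads. Hnrnpa3, Srsf3, Hnrnpk and Srsf2 lie above 2-fold and Hnrnpab, Hnrnpm, Hnrnpc and Snrpc below 1 in 2, with intervals that exclude 1; genes with few bulk reads, such as U2af1, have intervals that span most of the axis.

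As a sum the Sm core showed no gap, at 745 ± 508 CPM in the cells and 637 CPM in bulk, a ratio of 1.17 (interval 0.820 to 1.73). Its bulk reads were spread unevenly over the genes. Snrpb and Snrpd1 had 30 bulk reads together, while Snrpd2, Snrpe, Snrpf and Snrpg, which fill the other positions of the ring measured here, had none. Each of the 4 was found in 25 to 31 cells. Snrpf had a median of 51.2 CPM, a highest value of 1256 CPM in C09 and a mean of 137 ± 265 CPM. Snrpd2 was at 64.4 ± 61.4 CPM, Snrpe at 42.7 ± 42.8 CPM and Snrpg at 39.5 ± 42.0 CPM. The cells' mean of Snrpf was 2.15-fold the floor of 3 bulk reads (1.62-fold without C09), but its mean in gene-rich cells, 62.5 CPM, was under that floor. The cells' mean of Snrpd2 was 1.01-fold the floor. The means of Snrpe and Snrpg were under the floor. That of Snrpd2 was under 78.3 CPM, the upper end of the interval of a bulk count of 0. These 4 genes were grouped because they had no bulk read. Snrpb, which shares its ring position with Snrpn, ranged from 0 to 713 CPM (median 132, mean 220 ± 199) and was at 382 CPM in bulk, which was higher by 1.73-fold (interval 1.03 to 2.74). Snrpd1 was at 241 ± 439 CPM, with 2204 CPM in C03, and at 255 CPM in bulk, a ratio of 0.946 (interval 0.541 to 1.83).

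Snrpn, the imprinted Sm gene that is mainly neuronal, had 0 reads in the 34 cells, for which the interval of the share of cells reaches 10.3%, and 0 in bulk. Its locus overlaps that of Snurf in the RefSeq table, and Snurf had 19 reads in 5 cells. Snrpn is also a close relative of Snrpb, so its counts depend on how shared reads were assigned, which is not given in the sources used here.

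The U1 and U2 snRNP proteins were found in 20 to 28 cells each. Their sum was 534 ± 438 CPM in cells and 615 CPM in bulk, a ratio of 0.867 (interval 0.604 to 1.30). Snrpc, the U1 protein that helps hold the 5′ splice site, was at 35.6 ± 54.2 CPM, from 0 to 236 CPM in C74 with a median of 12.7. Bulk held 191 CPM from 9 reads, above every cell but C74 and 5.37-fold their mean (interval 2.45 to 10.2). The table lists 10 pseudogene loci for Snrpc. Snrpa, another U1 protein, was at 166 ± 189 CPM and 170 CPM in bulk, and Snrpa1, a U2 protein, at 204 ± 204 CPM and 212 CPM in bulk. Snrpb2, its partner on U2, was at 129 ± 322 CPM in cells and 42.4 CPM in bulk (2 reads), and C88 held 42.9% of its signal from 24 reads.

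SF3a and SF3b, the parts of U2 that bind the branch site, summed to 1620 ± 1021 CPM in cells and 1528 CPM in bulk (72 reads), a ratio of 1.06 (interval 0.842 to 1.35). By the 2-fold rule 3 of 9 genes were higher in the cells, against 53.4% of all records compared, but Sf3a2 and Sf3b6 had no bulk read and means under the floor. With bulk at the floor Sf3b1, the large scaffold of SF3b, was the 1 gene higher by that rule. It ranged from 0 to 3076 CPM in C47, with a median of 645 and a mean of 637 ± 572 CPM, and 24 cells were above the bulk level of 255 CPM. The ratio was 2.5 (interval 1.43 to 4.84), and 2.21 without C47. In gene-rich cells Sf3b1 was at 765 ± 250 CPM, from 222 to 1128. Sf3a1, Sf3a3, Sf3b2, Sf3b3 and Sf3b4 were at 0.535 to 0.824 times bulk, with intervals that all included 1. Sf3b3 ranged from 0 to 1909 CPM in C74 and was detected in 18 of the 22 gene-rich cells. Sf3b5 was detected in 19 cells at 59.7 ± 75.7 CPM, and Sf3b6, which touches the branch adenosine, in 24 cells at 38 ± 48.4 CPM with no bulk read. Sf3a2 was detected in 6 cells, had no bulk read and drew 90.3% of its signal from 4 reads in C94.

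U2af1, the small U2AF subunit that reads the AG of the 3′ splice site, was detected in 20 cells at 34.9 ± 59.2 CPM, from 0 to 262 CPM in C46 with a median of 7.32. It had 1 bulk read, too few for a comparison. Sfpq, a protein of splicing complexes and of paraspeckles, was detected in 29 cells with a median of 84.0 CPM and had no bulk read. C88 held 8941 CPM from 114 reads, 61.0% of the signal. The mean was 431 ± 1528 CPM, 6.77-fold the floor of 3 bulk reads and 5.51-fold the upper end of the bulk interval. Without C88 it was 173 CPM, or 2.72-fold the floor.

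Over all families 47 members were compared. Of these, 20 were at least 2-fold higher in the cells, against 53.4% of the 9023 records compared, and 7 were at least 2-fold higher in bulk, against 21.9%. How these shares stand to the background depended on the filter. Among the 5595 records of at least 20 CPM, 16 of 43 members against 26.5% of records were at least 2-fold higher in the cells, and 7 of 43 against 34.1% were at least 2-fold higher in bulk. With a pseudocount of 10 CPM, 20 of 47 members against 33.8% of records were higher in the cells. With bulk set to the floor of 3 reads where it had none, 13 members and 7.86% of records were at least 2-fold higher in the cells. The floor acts on 9 of the 47 members but on 47.5% of all records compared, so these shares are not at matched levels. The median log2 ratio of the members was 0.48 and that of all records 1.61, and with the floor they were −0.060 and −1.33. Among records of at least 20 CPM, 5 of 43 members and 17% of all records had no bulk read.

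Spread between cells was measured as the log10 squared coefficient of variation of CPM less its trend on the mean. The members' median was −0.19 and that of all records was near 0 (0.00052), and 18 of 47 members lay above the trend against 50.1% of all records. For members and records of at least 20 CPM the medians were −0.14 and −0.02. By family the median was −0.50 for the Sm core, −0.29 for U1 and U2 snRNP and for SF3a and SF3b genes, −0.19 for hnRNP and 0.09 for SR genes. Among members detected in at least 8 cells, Snrpe (−0.64), Snrpg (−0.61), Snrpd2 (−0.59) and Hnrnpul1 (−0.54) had the least spread for their level. Srsf10 (0.95), Sfpq (0.93), Hnrnpu (0.39), Snrpb2 (0.37), Hnrnpr (0.36) and Hnrnpd (0.27) had the most. In each of these 6 a single cell held 30.9% to 69.1% of the signal, and in Sfpq, Snrpb2 and Hnrnpu that cell was C88 or C94.

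**Figure D5:**
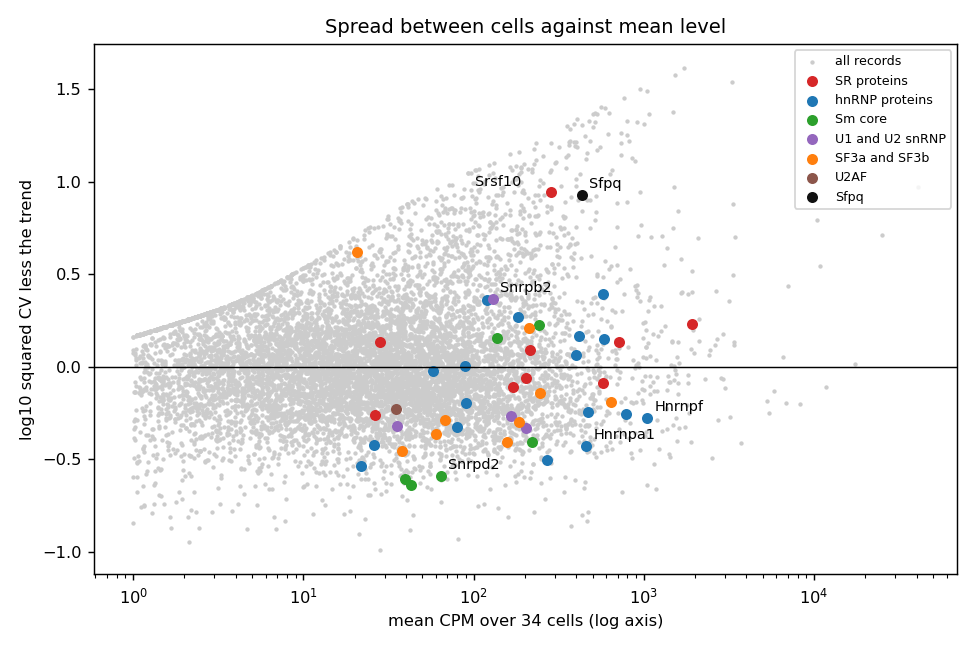
Excess spread (log10 squared coefficient of variation of CPM less a lowess trend) against mean CPM over 34 cells (log axis) for all records in grey and splicing factor genes in colour. Srsf10 and Sfpq stand highest among the labelled genes, at 0.95 and 0.93, and Hnrnpa1, Hnrnpf and Snrpd2 lie below 0.

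Pairs of members were about as related across cells as pairs of other records. Over 34 cells the median Spearman's rho of the 946 pairs among the 44 members detected in at least 17 cells was 0.26, and that of all pairs of such records was 0.21. Over gene-rich cells these were 0.040 and 0.015, with the middle 50% of member pairs between −0.12 and 0.21. Cells share depth and amplification, so these values are a description. The pairs with the highest rho over gene-rich cells were Hnrnpa2b1 with Hnrnpk (0.69), Hnrnpab with Hnrnpd (0.67), Srsf1 with Hnrnpa1 (0.64), Hnrnpk with Sf3a1 (0.63), Hnrnpa2b1 with Sf3a1 (0.62) and Hnrnpdl with Hnrnpk (0.61). The lowest was Hnrnpk with Hnrnpl (−0.62). Summed families were related to different degrees, with a rho over the 22 cells of 0.55 for hnRNP and Sm core, 0.38 for SR and hnRNP and −0.07 for SR and SF3a and SF3b.

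The 7 other lists of splicing genes each had a smaller share of genes in at least 17 cells than the 89.8% of the members. The shares ran from 42.9% for SR kinases to 86.7% for exon junction complex and SR-related genes, with 0% for tissue-restricted regulators. Over all records the share was 17%. That share rises with level, and the lists were not matched to the members on level. The members' median was 26 cells, and that of these lists ran from 1 for the restricted regulators to 27 for the exon junction list. Among 24 measured tri-snRNP, U1 and minor snRNP genes, 18 reached 17 cells. Among them were Snrnp200, the helicase that unwinds U4 from U6 (301 ± 562 CPM, 27 cells) and Lsm6 (223 ± 209 CPM, 30 cells, no bulk read). Of 27 Prp19 complex, helicase and step factor genes 19 reached that number, among them Puf60 (634 ± 2353 CPM, 64.4% of it in C88), Ddx39b (351 ± 297 CPM) and Cdc5l (272 ± 240 CPM). Exon junction complex and SR-related genes reached it in 13 of 15 cases, with Rbm39 at 989 ± 1067 CPM, Rnps1 at 470 ± 336 and Srrm2 at 403 ± 476. For snRNP assembly the number was 7 of 12. Wdr77, a partner of the methyltransferase Prmt5 that modifies Sm proteins, was at 618 ± 736 CPM in cells and had 72 bulk reads. Prmt5 itself was at 236 ± 269 CPM and Clns1a, which holds Sm proteins before assembly, at 148 ± 180 CPM.

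Kinases of SR proteins were found in fewer cells than the members, at a median of 15 against 26, with 2 over all records. Of the 7, Srpk1 and Srpk2 were each detected in 22 cells and Clk1 in 20, at 76.8 ± 95, 51.9 ± 63.4 and 153 ± 270 CPM. Clk3 was at 121 ± 389 CPM with 52.4% of its signal in C95, and Srpk3 had 2 reads. Among 23 other widely expressed regulators 13 reached 17 cells. Ddx5, an RNA helicase, was at 1328 ± 1640 CPM in 32 cells and was 7.82-fold its bulk level (8 reads). Elavl1, which binds AU-rich RNA, was at 1130 ± 1369 CPM in 31 cells, and Ptbp1, which represses neuronal exons, at 678 ± 1580 CPM in 28 cells, with 39.5% of its signal in C31 and a mean of 423 CPM without it.

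Tissue-restricted splicing regulators had few reads. Of 18 measured genes 0 reached 17 cells, against 17% of all records, and 8 were found in no cell. That is near the background, in which 4873 of the 12873 records with a promoter window were in no cell, and the list's median of 1 cell compares with 2 over all records. Rbfox3, Nova1, Celf6, Rbm24, Khdrbs2 and Khdrbs3 had 0 reads in the cells. Mbnl3 was detected in 9 cells at 39 ± 112 CPM, Rbfox2 in 12 at 25.9 ± 67.6 CPM and Esrp1, an epithelial splicing regulator, in 6 at 15.9 ± 55.6 CPM. Without C13 the mean of Mbnl3 was 24.5 CPM, and without C80 that of Esrp1 was 7.16 CPM. Ptbp2, the neuronal relative of Ptbp1, reached detection in 8 cells, at 8.18 ± 17.8 CPM.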

How the data were processed

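The authors deposited whole-number read counts per RefSeq transcript record for 34 single cells and 1 bulk library in a single table. TopHat2 and genome build rn5 are named per the submitters' processing notes. Which program counted the reads, with which annotation and how multiply mapped reads were treated, is not given in the sources used here. The labels mention no molecular identifiers. Records were matched by identifier to symbols in a RefSeq gene table (GRCr8), which named 16215 of 17201 records. The other 986 held 4.11% of the reads and stayed in the totals.

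CPM values are counts divided by each library's total (Python 3.11.15, pandas 2.3.3). Cells were weighted equally. Detection means 5 CPM or more. Ratios used a pseudocount of 1 CPM on the log2 scale and records whose cell and bulk levels averaged 1 CPM or more, and ratios printed as folds used no pseudocount. Excess spread used a lowess trend (fraction 0.3, statsmodels 0.14.6). The calculations were tested on simulated data. TMM factors came from edgeR 4.0.16. No cell was removed and no doublet caller was run.

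Members, lists and rules were chosen with earlier results of these data known. Values were named for the 4 members of each family with the highest mean CPM and the 2 in the fewest cells, the 6 highest and 6 lowest ratios, the 6 highest and 4 lowest excess spreads, the 6 closest pairs, and the 3 genes with the highest mean in each list of other splicing genes along with those at 0 reads. Excess spread was ranked among members found in at least 8 cells. Others were added for their role after their values were seen. One gene that the rule names is not reported here. Alternatives varied the detection threshold, pseudocount, scaling, filter, summary over cells, depth by thinning, and the cells included.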

Additional observations from a re-analysis of the deposited data

How the results depend on the processing

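The alternatives without C94 and C88, without the cells with a Col1a2 read, with bulk at the floor, over members of at least 100 CPM and all those for the SR share were chosen after the data were seen. The number of members detected in at least 17 cells was 44, and 29 of 29 at 100 CPM or more. The median share of cells with a member was 76.5%, against 55.9% at a threshold of 50 CPM and 95.5% in gene-rich cells. The members' median log2 ratio, 0.48 over bulk, was 0.76 with TMM factors, 0.59 with summed counts, 0.98 in gene-rich cells and 0.33 for members of at least 20 CPM. With the median over cells it reversed to −0.33. There 13 of 47 members against 9.22% of records were at least 2-fold higher in the cells, and 16 against 41.1% in bulk. With bulk at the floor the members' median reversed to −0.060, where 13 members against 7.86% of records were higher in the cells. Srsf10 reversed from 1.42 to −0.88 by its median and −0.30 in gene-rich cells, and C03 held most of its signal. With bulk at the floor, Hnrnpul1 (−1.54), Sf3a2 (−1.62), Sf3b6 (−0.75), Snrpe (−0.57) and Snrpg (−0.69) turned, since their means are under that floor. The median rho between members, 0.26, was 0.040 in gene-rich cells and 0.14 after thinning to 50000 reads, which 30 cells had. The other causes were not tested. The ratios of summed families, the SR share less that of bulk and the median excess spread kept their direction under every alternative run, except that the U1 and U2 snRNP sum was 1.07 times bulk in gene-rich cells. The SR sum was 1.8 to 2.17 times bulk with all its genes and 1.41 times without Srsf3. Of 513 values of single members under alternatives, 429 moved by no more than 0.5 on the log2 scale. That count includes 47 values with no filter and 43 with the filter of 20 CPM. A filter changes which genes are compared and not a gene's ratio, so those values could not move. With bulk at the floor, genes with a bulk read lost the pseudocount and were otherwise unchanged. Leaving out C03 for Srsf10, C88 for Sfpq and Snrpb2, C39 for Hnrnpr, C05 for Srsf4 and C94 for Sf3a2 moved those means by over 1.5 times. A single bulk library of 47121 reads limits every ratio. No paired analysis was possible because the bulk library is alone in its group.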
